A study of Mus musculus with 6 samples.

Results

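The SLC25 genes, which encode the mitochondrial solute carriers, were followed in the hearts of 10-day-old mice. The members are the protein-coding genes of the deposited table whose symbol starts with Slc25a and a number, with Slc25a4, Slc25a5 and Slc25a20 left out by the rule. It gave 44 members among 46452 genes, of which 22186 were protein-coding. Hearts of 2 labels were compared, each with 3 biological replicates and 1 library per replicate. Hearts labelled Nat10-CKO carry a conditional knockout of Nat10, which encodes an RNA acetyltransferase, and hearts labelled Nat10 flox/flox carry loxP-flanked alleles of the gene. The Cre driver, the deleted exons and whether the flox/flox mice carried Cre are not given in the sources used here. The series asks what NAT10 does in heart development.

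SLC25 proteins are carriers of the inner mitochondrial membrane, apart from a few on peroxisomes or the outer membrane. Each is built from repeats of a pair of membrane-spanning helices and exchanges or imports a small solute, such as phosphate, nucleotides, keto acids, amino acids, cofactors or iron, between cytosol and matrix. Heart muscle, which makes most of its ATP in mitochondria, depends on the phosphate carrier and on the carriers of the malate-aspartate shuttle, which moves reducing equivalents from the cytosol into the matrix.

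Libraries held 31155521 to 38051266 reads in genes, of which mitochondrially encoded genes took 7.56% to 9.26% in libraries labelled Nat10-CKO and 16.6% to 18.3% in Nat10 flox/flox libraries. Nat10 itself went against its label: it had 8.28, 8.66 and 10.2 FPKM (fragments per kilobase, which the authors had already scaled for library size) in libraries labelled Nat10-CKO, against 3.75, 4.18 and 4.71 FPKM in Nat10 flox/flox libraries (log2 fold change 0.94 with SE 0.12, adjusted p = 0.00142 by limma). Reads from undeleted exons or cells cannot be separated in values per whole gene, and every direction below refers to the libraries as labelled. Nat10 flox/flox replicate 1 stood apart by its neuronal markers: 8 of them summed to 380 FPKM there, 3.70 and 4.40 FPKM in Nat10 flox/flox replicates 2 and 3, and between 5.83 and 14.6 FPKM in libraries labelled Nat10-CKO. Nat10-CKO replicate 1 had the lowest sum of 7 cardiomyocyte markers, 10860 FPKM against 18184 and 20847 FPKM in Nat10-CKO replicates 2 and 3 and between 21525 and 25584 FPKM in Nat10 flox/flox libraries. None of those 7 markers was at 0 in any library.

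Most of the SLC25 genes that changed were lower in libraries labelled Nat10-CKO. Of the 44 members, 33 had a mean of at least 1 FPKM over the 6 libraries and were tested, with limma on log2(FPKM + 1) and Benjamini-Hochberg adjustment over all 11996 tested genes. With an adjusted p under 0.05, 11 members were lower (33.3% of those tested, against 16% of all tested genes) and 3 were higher (9.09%, against 24.4% of all tested genes). In either direction 14 members passed, 42.4% against 40.5% of all tested genes, so the family was called about as often as other genes. With Nat10 flox/flox replicate 2 left out, 6 members were lower and 1 higher, and the counts were 6 and 1 as well with replicate 3 of that group left out.

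Tested members had a median log2 fold change of -0.31, against 0.03 over all tested genes, and 27 of the 33 had a negative value (81.8%, against 47.4% of all tested genes). The groups did not overlap for 20 members (60.6%, against 55.9% of all tested genes), 15 of them with the libraries labelled Nat10-CKO at the lower side. After each library was rescaled to the same sum over protein-coding genes, which moved the median of all tested genes by 0.129, 7 members were lower and 5 higher (higher calls 41.7% of member calls, 21.4% with the deposited scaling; over all tested genes 72.2% and 60.4%). The members' median then lay 0.33 below that of all genes, where with the deposited scaling it lay 0.34 below. With the mitochondrially encoded genes left out, 14 members were lower and 2 higher. Over all tested genes 2479 were then lower and 2352 higher (higher calls 48.7% of all calls and 12.5% of member calls). The members' median lay 0.36 below that of all genes. The shares of all tested genes set beside each list are those of the deposited scaling.

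**Figure D1:**
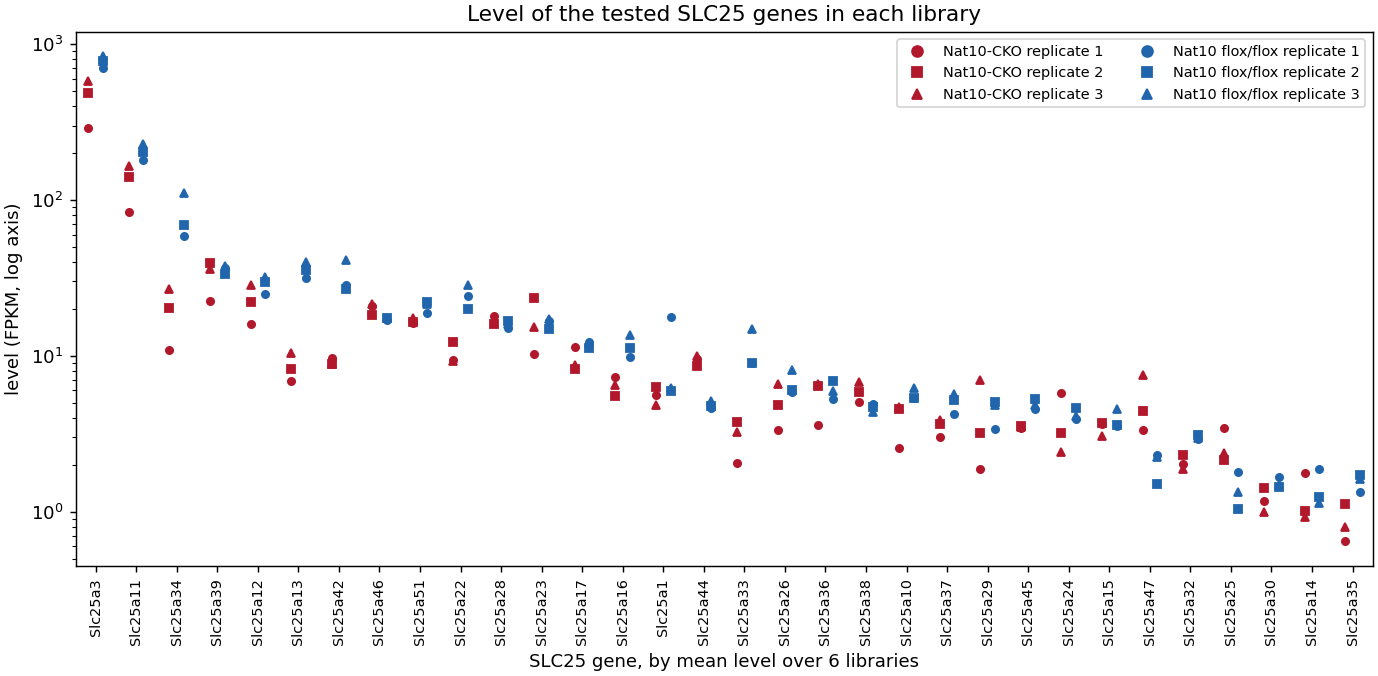
Level of 32 of the 33 tested SLC25 genes in each library (FPKM on a log axis), ordered by the mean over the 6 libraries; each point is 1 library, with Nat10-CKO left and Nat10 flox/flox right at each gene. Slc25a3 stands above all others, and the groups separate most widely at Slc25a34, Slc25a13, Slc25a42 and Slc25a33.

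The family's summed level was 603, 903 and 1040 FPKM in Nat10-CKO replicates 1, 2 and 3, against 1269, 1383 and 1546 FPKM in Nat10 flox/flox replicates 1, 2 and 3. All 3 libraries labelled Nat10-CKO lay below all 3 Nat10 flox/flox libraries. Slc25a3 alone gave 48.2% to 55.7% of the sum in libraries labelled Nat10-CKO and 53.9% to 56.8% in Nat10 flox/flox libraries. Without it the sums were 312, 419 and 461 FPKM in libraries labelled Nat10-CKO, against 569, 598 and 713 FPKM in Nat10 flox/flox libraries. In bulk tissue, fewer cells of a type and less RNA per cell cannot be told apart.

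Members differed in how large the change was. Slc25a34, Slc25a13, Slc25a42, Slc25a33 and Slc25a22 had a log2 fold change of -1 or below, which 4.67% of all tested genes had together with a lower call. These 5 kept their call under all 21 alternative settings tried. Among the 13 members with a mean of at least 10 FPKM 5 were lower and 0 higher, while 14.9% of all tested genes at that level were lower and 34.2% higher. Among the 20 members between 1 and 10 FPKM 6 were lower and 3 higher, while 16.8% of all tested genes at that level were lower and 18.2% higher. The count of 0 is limma's with an adjusted p under 0.05.

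**Figure D2:**
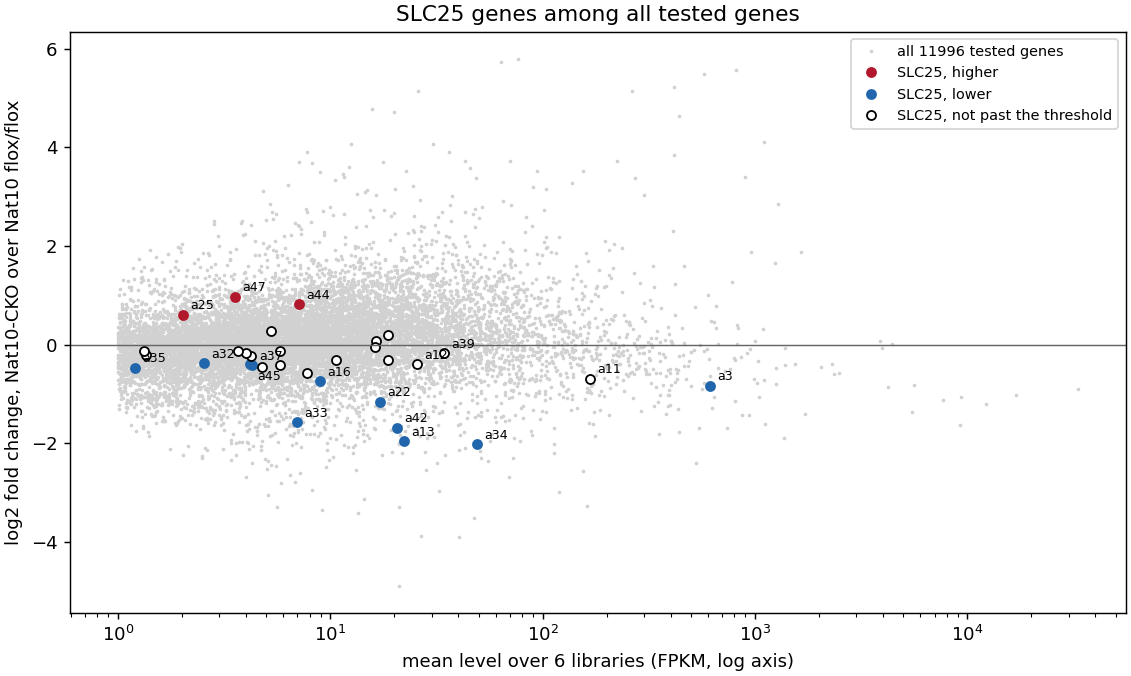
Log2 fold change (Nat10-CKO over Nat10 flox/flox, on the log2(FPKM + 1) scale) against mean level over the 6 libraries (FPKM, log axis) for the 11996 tested genes in grey and 32 of the 33 tested SLC25 genes as larger points, some labelled without the prefix Slc25. The 5 members with a log2 fold change of -1 or below lie in the lower part of the grey cloud, and the 3 higher members all lie under 10 FPKM.

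The phosphate carrier gene Slc25a3 was the most abundant member in either group. It imports the inorganic phosphate that ATP synthase joins to ADP, and it also carries copper for cytochrome oxidase. Slc25a3 (gene ID 18674, chromosome 10, 90952436 to 90959902, minus strand, GRCm39, as for all gene coordinates here) had 291, 484 and 579 FPKM in Nat10-CKO replicates 1, 2 and 3, against 700, 785 and 833 FPKM in Nat10 flox/flox replicates 1, 2 and 3. Every library labelled Nat10-CKO was below every Nat10 flox/flox library, and Nat10-CKO replicate 1 was lowest. Its log2 fold change was -0.83 ± 0.26 (SE) with an adjusted p of 0.0434 by limma, and the ratio of group means was 0.584. The call was lost with any 1 Nat10 flox/flox library left out (adjusted p = 0.0815, 0.116 and 0.123 by limma for replicates 1, 2 and 3) and with Nat10-CKO replicate 2 left out (0.0814).

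The class of ATP, phosphate and coenzyme A carriers, Slc25a3 among them, held 3 lower and 1 higher of 7 tested members. Over all tested genes 16% were lower and 24.4% higher. Of the 3 carriers of coenzyme A in this class, Slc25a42 and Slc25a16 fell and Slc25a17 did not pass. Slc25a42 (gene ID 73095, chromosome 8, 70636990 to 70664931, minus strand), which brings coenzyme A into the matrix in exchange for adenine nucleotides, had 9.67, 8.86 and 8.90 FPKM in libraries labelled Nat10-CKO, against 28.3, 26.8 and 41.3 FPKM in Nat10 flox/flox libraries. The libraries labelled Nat10-CKO were close to one another, and Nat10 flox/flox replicate 3 was high. Its log2 fold change was -1.68 ± 0.17 (SE, adjusted p = 0.000716 by limma), and the ratio of group means was 0.284. Slc25a16, whose yeast relative is needed for coenzyme A in mitochondria, had 7.36, 5.53 and 6.53 FPKM in libraries labelled Nat10-CKO, against 9.81, 11.2 and 13.5 FPKM in Nat10 flox/flox libraries. It fell by 0.74 ± 0.15 on the log2 scale (SE, adjusted p = 0.00853 by limma). Slc25a17, a peroxisomal carrier of coenzyme A and other cofactors, averaged 9.47 ± 1.72 FPKM in libraries labelled Nat10-CKO and 11.9 ± 0.578 FPKM in Nat10 flox/flox libraries (SD, n = 3 each) and missed the threshold (log2 fold change -0.31, adjusted p = 0.109 by limma). Slc25a17 passed as lower under 4 of the 21 alternative settings, among them Nat10-CKO replicate 1 left out (0.0134) and quantile normalization (0.0415).

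The ATP-Mg/phosphate carriers, which are opened by calcium and change the size of the adenine nucleotide pool in the matrix, went different ways. Slc25a25 (gene ID 227731, chromosome 2, 32304499 to 32341482, minus strand) had 3.44, 2.14 and 2.38 FPKM in libraries labelled Nat10-CKO, against 1.78, 1.04 and 1.34 FPKM in Nat10 flox/flox libraries. Every library labelled Nat10-CKO was above the Nat10 flox/flox libraries. Its log2 fold change was 0.61 ± 0.18 (SE, adjusted p = 0.0377 by limma), lost with 1 library left out, Nat10-CKO replicate 1 (0.0746) or 3 (0.065) or Nat10 flox/flox replicate 2 (0.115) or 3 (0.0969). It was lost too with scaling by total reads (0.0619) and without the mitochondrially encoded genes (0.0778). The gene overlaps Naif1 on the opposite strand by 1014 bases, so a part of its reads is uncertain without the strand setting of the counting.

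Slc25a24 had 5.75, 3.21 and 2.43 FPKM in libraries labelled Nat10-CKO, against 3.91, 4.60 and 4.11 FPKM in Nat10 flox/flox libraries. Nat10-CKO replicate 1 lay above and replicates 2 and 3 below the Nat10 flox/flox range, and the gene did not pass (log2 fold change -0.18 with SE 0.24, adjusted p = 0.588 by limma). Leaving out Nat10-CKO replicate 1 made it pass as lower (log2 fold change -0.45, adjusted p = 0.0372 by limma), and without Nat10-CKO replicate 3 its sign turned (0.036). Slc25a23, the more abundant member of this class in heart, had 10.3, 23.5 and 15.4 FPKM in libraries labelled Nat10-CKO, against 16.6, 14.8 and 17.1 FPKM in Nat10 flox/flox libraries. Its groups overlapped (adjusted p = 0.888 by limma).

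Among carriers of di- and tricarboxylates, which link the citric acid cycle to the cytosol, 2 of 5 tested members were lower and 0 higher, against 16% and 24.4% of all tested genes. Slc25a34 (gene ID 384071, chromosome 4, 141346130 to 141351202, minus strand) resembles the yeast oxaloacetate carrier, and its solute in mammals is not settled. It had 10.9, 20.2 and 26.9 FPKM in libraries labelled Nat10-CKO, against 58.5, 69.3 and 110 FPKM in Nat10 flox/flox libraries. The highest of the libraries labelled Nat10-CKO was well below the lowest Nat10 flox/flox library. With -2.02 ± 0.36 (SE, adjusted p = 0.00552 by limma) it had the most negative log2 fold change of the family on this scale (Slc25a13 had it under voom, with array weights and with some libraries left out), and the ratio of group means was 0.244. Its close relative Slc25a35 was much less abundant, at 0.643, 1.11 and 0.799 FPKM in libraries labelled Nat10-CKO, against 1.33, 1.72 and 1.61 FPKM in Nat10 flox/flox libraries. Its groups did not overlap (log2 fold change -0.47 with SE 0.15, adjusted p = 0.0456 by limma). The Slc25a35 call was lost with Nat10-CKO replicate 1 (0.0906) or 3 (0.0989) or Nat10 flox/flox replicate 2 (0.132) or 3 (0.119) left out, under quantile normalization (0.134), with no filter (0.097) and with protein-coding genes rescaled (0.0724). Rangrf overlaps it on the opposite strand by 1883 bases at a mean of 0.0562 FPKM.

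Slc25a11 (gene ID 67863, chromosome 11, 70534845 to 70538356, minus strand), the 2-oxoglutarate/malate carrier of the malate-aspartate shuttle, was second in abundance. It had 84.2, 140 and 166 FPKM in libraries labelled Nat10-CKO, against 179, 202 and 228 FPKM in Nat10 flox/flox libraries. Although the groups did not overlap, the spread within libraries labelled Nat10-CKO was wide and the gene missed the threshold (log2 fold change -0.69 with SE 0.26, adjusted p = 0.0726 by limma). It passed as lower with scaling by total reads (0.0373), without the mitochondrially encoded genes (0.0264), under quantile normalization (0.0426) and without Nat10-CKO replicate 3 (0.0369). The dicarboxylate carrier gene Slc25a10 averaged 3.93 ± 1.18 FPKM in libraries labelled Nat10-CKO and 5.66 ± 0.510 FPKM in Nat10 flox/flox libraries (SD, n = 3 each). It missed the threshold (adjusted p = 0.0992 by limma) and passed as lower only without the mitochondrially encoded genes (0.035).

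Slc25a1, the citrate carrier that supplies acetyl units for lipid synthesis, had 5.63, 6.32 and 4.86 FPKM in libraries labelled Nat10-CKO, against 17.8, 5.91 and 6.19 FPKM in Nat10 flox/flox libraries. Only Nat10 flox/flox replicate 1, the library with the neuronal markers, was high. The log2 fold change was -0.57 ± 0.38 (SE, adjusted p = 0.268 by limma), or -0.10 without that library (adjusted p = 0.606 by limma). The part of the neuronal markers in its level was not tested. Slc25a21, the oxodicarboxylate carrier, had 0 reads in libraries labelled Nat10-CKO, against 4, 0 and 4 reads in Nat10 flox/flox libraries.

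**Figure D3:**
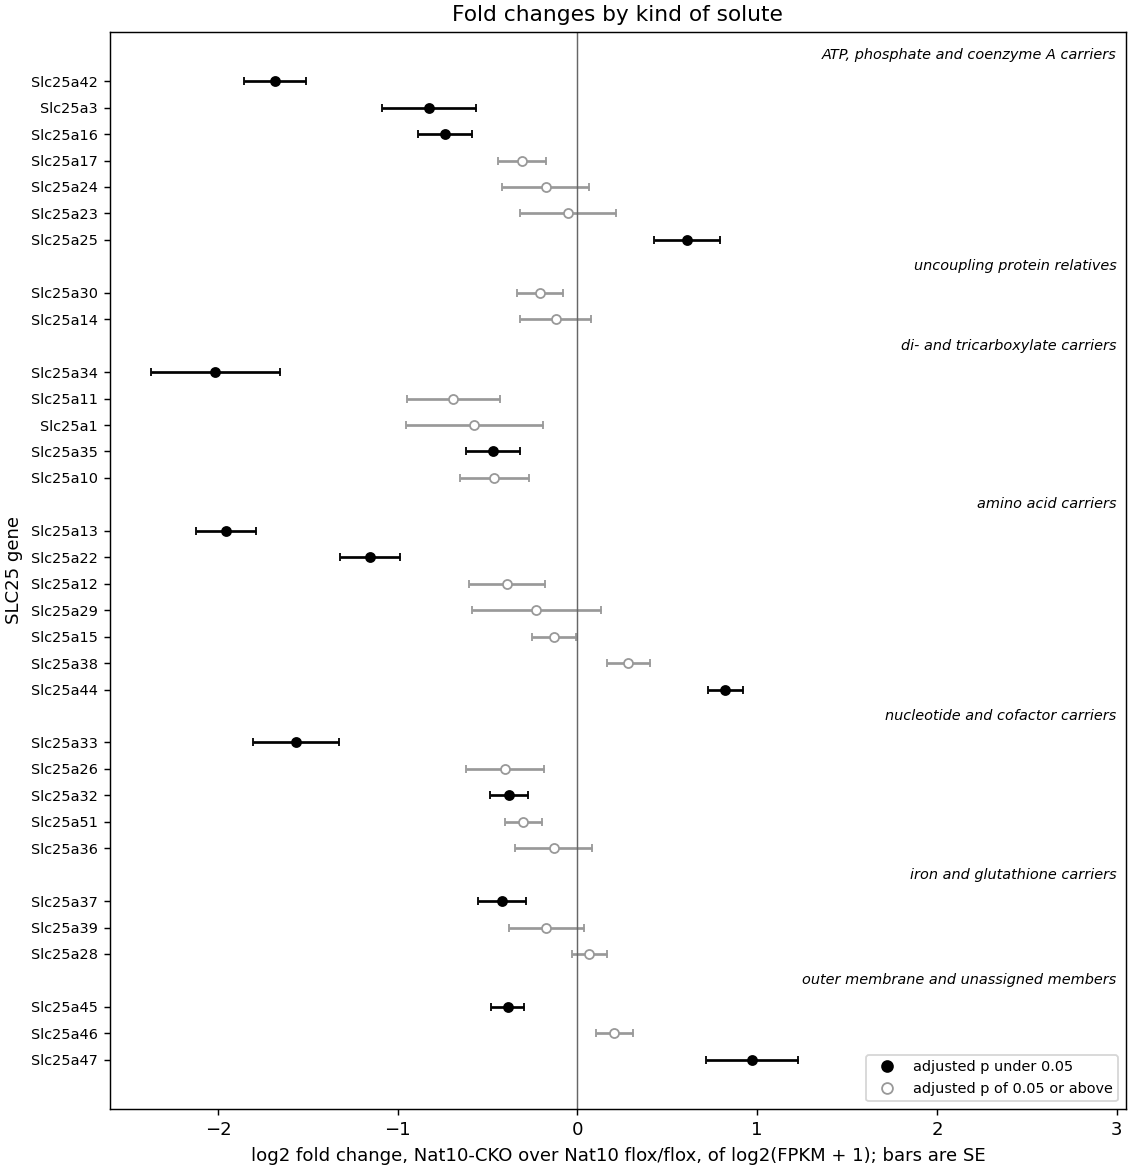
Log2 fold change (Nat10-CKO over Nat10 flox/flox, on the log2(FPKM + 1) scale) with its standard error for 32 of the 33 tested SLC25 genes, grouped by solute; filled points have a limma adjusted p under 0.05. The 11 lower members are spread over 6 of the 7 classes, and the 3 higher ones are Slc25a25, Slc25a44 and Slc25a47.

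The carriers of amino acids held 2 lower and 1 higher of 7 tested members, against 16% and 24.4% of all tested genes. Slc25a13 (gene ID 50799, chromosome 6, 6041218 to 6217304, minus strand) encodes citrin, a calcium-regulated aspartate/glutamate carrier of the malate-aspartate shuttle that is known best from liver. It had 6.88, 8.24 and 10.5 FPKM in libraries labelled Nat10-CKO, against 31.5, 35.7 and 40.1 FPKM in Nat10 flox/flox libraries. The groups lay far apart relative to the spread within each, and the log2 fold change was -1.96 ± 0.17 (SE), with an adjusted p of 0.000451 by limma and a ratio of group means of 0.239. By mean level within the family it ranked 14 in libraries labelled Nat10-CKO, against 5 in Nat10 flox/flox libraries.

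Slc25a12 (gene ID 78830, chromosome 2, 71104614 to 71198125, minus strand), which encodes aralar, the aspartate/glutamate carrier typical of heart, skeletal muscle and brain, behaved differently. It had 16.1, 22.1 and 28.6 FPKM in libraries labelled Nat10-CKO, against 24.99, 29.8 and 32.0 FPKM in Nat10 flox/flox libraries. Its groups overlapped, and it did not pass (log2 fold change -0.39 with SE 0.21, adjusted p = 0.182 by limma). It passed as lower under 2 of the 21 alternative settings, quantile normalization (0.0365) among them.

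Slc25a22 (gene ID 68267), a glutamate carrier, had 9.37, 12.2 and 9.23 FPKM in libraries labelled Nat10-CKO, against 24.3, 19.8 and 28.3 FPKM in Nat10 flox/flox libraries. All libraries labelled Nat10-CKO were lower (log2 fold change -1.16 with SE 0.17, adjusted p = 0.00237 by limma, ratio of group means 0.425). Slc25a44 (gene ID 229517, chromosome 3, 88317801 to 88334303, minus strand), the carrier of branched-chain amino acids known from brown fat, had 9.51, 8.54 and 9.99 FPKM in libraries labelled Nat10-CKO, against 4.65, 4.75 and 5.15 FPKM in Nat10 flox/flox libraries. Replicates agreed closely in either group, and Slc25a44 was higher with a log2 fold change of 0.82 ± 0.10 (SE), an adjusted p of 0.00118 by limma and a ratio of group means of 1.93. It passed without any 1 library, with a highest adjusted p of 0.00884 by limma. Ucp1, which defines brown fat cells, was at 0 in libraries labelled Nat10-CKO, and at 1.14, 0.0576 and 0 FPKM in Nat10 flox/flox libraries. Over the 6 brown fat markers listed, 1 of 2 tested was lower and 0 were higher, against 16% and 24.4% of all tested genes. The summed level of the 6, nearly all Fabp4, which was the lower one, was 224 to 293 FPKM in libraries labelled Nat10-CKO. It was 418 to 615 FPKM in Nat10 flox/flox libraries. Cidea, the other tested marker, had 16.1, 22.4 and 21.2 FPKM in libraries labelled Nat10-CKO, against 13.4, 12.9 and 16.7 FPKM in Nat10 flox/flox libraries (adjusted p = 0.0672 by limma).

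Slc25a38, which brings glycine into mitochondria for heme synthesis, had 5.04, 5.85 and 6.79 FPKM in libraries labelled Nat10-CKO, against 4.89, 4.71 and 4.34 FPKM in Nat10 flox/flox libraries. The groups were just apart and the gene missed the threshold (adjusted p = 0.103 by limma); it passed as higher without Nat10-CKO replicate 1 (0.0345) and with protein-coding genes rescaled (0.0261). Slc25a29, a carrier of basic amino acids, and Slc25a15, the ornithine carrier, had overlapping groups (adjusted p = 0.633 and 0.417 by limma). Slc25a29 was uneven in libraries labelled Nat10-CKO, at 1.88, 3.21 and 6.95 FPKM, and its log2 fold change of -0.23 turned to 0.11 without Nat10-CKO replicate 1.

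Among carriers of nucleotides and cofactors 2 of 6 tested members were lower and 0 higher, against 16% and 24.4% of all tested genes. Slc25a33 (gene ID 70556, chromosome 4, 149828493 to 149858746, minus strand), a pyrimidine nucleotide carrier, had 2.05, 3.75 and 3.24 FPKM in libraries labelled Nat10-CKO, against 8.98, 9.02 and 14.9 FPKM in Nat10 flox/flox libraries. The groups were clearly separate, with a log2 fold change of -1.57 ± 0.24 (SE), an adjusted p of 0.00315 by limma and a ratio of group means of 0.274. Slc25a36, the other pyrimidine nucleotide carrier, had 3.58, 6.42 and 6.62 FPKM in libraries labelled Nat10-CKO, against 5.27, 6.89 and 5.91 FPKM in Nat10 flox/flox libraries, and missed the threshold (log2 fold change -0.13 with SE 0.21, adjusted p = 0.645 by limma). With Nat10-CKO replicate 1 left out its value was 0.11.

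Slc25a32, a carrier of folate and flavin cofactors, had 2.01, 2.32 and 1.88 FPKM in libraries labelled Nat10-CKO, against 2.92, 3.10 and 2.96 FPKM in Nat10 flox/flox libraries. The replicates were close and the groups apart (log2 fold change -0.38 with SE 0.11, adjusted p = 0.0275 by limma). Its call was lost with protein-coding genes rescaled (0.104), under quantile normalization (0.0506) and with Nat10-CKO replicate 3 (0.0707) or any Nat10 flox/flox replicate left out (0.0535, 0.0942 and 0.0786 for 1, 2 and 3). Slc25a51, which imports NAD, had 16.1, 16.4 and 17.6 FPKM in libraries labelled Nat10-CKO, against 18.9, 22.0 and 21.6 FPKM in Nat10 flox/flox libraries. It missed the threshold narrowly (log2 fold change -0.30 with SE 0.10, adjusted p = 0.0561 by limma) and passed as lower with scaling by total reads (0.0259), without the mitochondrially encoded genes (0.0159), under quantile normalization (0.00804), with a minimum mean of 5 FPKM (0.0449) and without Nat10 flox/flox replicate 1 (0.0495). Slc25a26, the carrier of S-adenosylmethionine, had overlapping groups (log2 fold change -0.40, adjusted p = 0.185 by limma). It passed as lower under 1 of the 21 alternative settings (adjusted p = 0.049 by limma).

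Iron enters the matrix through mitoferrins, and glutathione through Slc25a39 and Slc25a40. Slc25a37 (gene ID 67712, chromosome 14, 69479297 to 69522993, minus strand), mitoferrin-1, the form typical of red cell precursors, had 3.02, 3.64 and 3.85 FPKM in libraries labelled Nat10-CKO, against 4.22, 5.17 and 5.71 FPKM in Nat10 flox/flox libraries. The groups did not overlap (log2 fold change -0.42 with SE 0.13, adjusted p = 0.0435 by limma). The call was lost with any Nat10-CKO library left out (0.0877, 0.09 and 0.0555 for replicates 1, 2 and 3), with Nat10 flox/flox replicate 2 (0.125) or 3 (0.138) left out and with protein-coding genes rescaled (0.0652). Of the 9 erythroid markers listed, 5 were tested and all 5 were lower too, against 16% of all tested genes. The 9 summed to 424, 432 and 535 FPKM in libraries labelled Nat10-CKO, against 1782, 1424 and 689 FPKM in Nat10 flox/flox libraries. None was at 0 in all libraries. Nat10 flox/flox replicate 3 had the lowest erythroid sum of its group and the highest Slc25a37. That is 1 library, and the part of the erythroid markers in the level of Slc25a37 was not tested.

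Slc25a28, mitoferrin-2, which is widely expressed, had 18.05, 16.1 and 16.1 FPKM in libraries labelled Nat10-CKO, against 15.1, 16.7 and 16.1 FPKM in Nat10 flox/flox libraries. Its groups overlapped, and its log2 fold change was 0.07 ± 0.10 (SE, adjusted p = 0.617 by limma), or -0.043 without the mitochondrially encoded genes and -0.14 under quantile normalization. Slc25a39, among the 5 most abundant members, had 22.6, 39.4 and 35.8 FPKM in libraries labelled Nat10-CKO, against 36.6, 33.6 and 37.8 FPKM in Nat10 flox/flox libraries. Only Nat10-CKO replicate 1 was low (log2 fold change -0.17 with SE 0.21, adjusted p = 0.531 by limma, and 0.06 without that library). Slc25a40 was far lower, at 0.664, 0.459 and 0.409 FPKM in libraries labelled Nat10-CKO, against 0.375, 0.427 and 0.548 FPKM in Nat10 flox/flox libraries, and was not tested.

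Of the members with no settled place, Slc25a47, which is known mainly from liver, was higher. It had 3.36, 4.44 and 7.51 FPKM in libraries labelled Nat10-CKO, against 2.32, 1.49 and 2.24 FPKM in Nat10 flox/flox libraries. The groups did not overlap and Nat10-CKO replicate 3 was highest (log2 fold change 0.97 with SE 0.26, adjusted p = 0.0237 by limma, ratio of group means 2.53). Its call was lost with Nat10-CKO replicate 2 (0.0561) or Nat10 flox/flox replicate 2 (0.0792) or 3 (0.0563) left out. The 5 liver markers listed, albumin among them, summed to 0.0412 to 0.374 FPKM in libraries labelled Nat10-CKO and 0.0663 to 0.907 FPKM in Nat10 flox/flox libraries, near 0 throughout. Slc25a45 had 3.42, 3.56 and 3.49 FPKM in libraries labelled Nat10-CKO, against 4.56, 5.28 and 4.81 FPKM in Nat10 flox/flox libraries. The groups were apart (log2 fold change -0.39 with SE 0.09, adjusted p = 0.0165 by limma), with the call lost without Nat10 flox/flox replicate 2 (0.072) or 3 (0.0553) and with protein-coding genes rescaled (0.0744).

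Slc25a46, an outer membrane protein that takes part in mitochondrial fusion and fission, had 20.7, 18.3 and 21.6 FPKM in libraries labelled Nat10-CKO, against 17.0, 17.6 and 17.6 FPKM in Nat10 flox/flox libraries. The groups did not overlap, yet the gene did not pass (log2 fold change 0.21 with SE 0.10, adjusted p = 0.145 by limma). It passed as higher with protein-coding genes rescaled (0.0436), and its value was -0.0064 under quantile normalization. The relatives of the uncoupling proteins Slc25a14 and Slc25a30 lay near 1 FPKM and did not pass (adjusted p = 0.648 and 0.242 by limma). Slc25a14 had 1.76, 1.02 and 0.917 FPKM in libraries labelled Nat10-CKO, against 1.87, 1.24 and 1.14 FPKM in Nat10 flox/flox libraries, and its value was 0.0084 with Nat10 flox/flox replicate 1 left out.

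The 11 members that were not tested lay between a mean of 0 and 1 FPKM. Slc25a27, the neuronal uncoupling protein relative, was nearest to the filter, at 0.893, 0.641 and 0.586 FPKM in libraries labelled Nat10-CKO, against 1.20, 1.03 and 0.856 FPKM in Nat10 flox/flox libraries. Slc25a31, the ADP/ATP carrier of the testis, had 10 to 15 reads in libraries labelled Nat10-CKO and 10 to 52 in Nat10 flox/flox libraries. Slc25a53 had 47, 44 and 9 reads in libraries labelled Nat10-CKO, against 178, 41 and 34 in Nat10 flox/flox libraries, with the highest value in the library that held the neuronal markers. Zcchc18 and the pseudogene Gm15038 overlap Slc25a53 on the opposite strand by 6094 and 7266 bases. They had means of 0.753 and 0.271 FPKM, so the reads of Slc25a53 are uncertain. Slc25a43 and the second glutamate carrier gene Slc25a18 had at most 35 reads in any library, and the second ornithine carrier gene Slc25a2 at most 7. Slc25a41 had 6, 0 and 2 reads in libraries labelled Nat10-CKO, against 0 in each Nat10 flox/flox library. Slc25a48 had 2 reads in Nat10-CKO replicate 3 and 0 elsewhere. Slc25a54 had 0 reads in all 6 libraries, which allows up to 3 reads per library, or 0.0616 FPKM where a read was worth most. These limits cover counting error only.

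Members with related solutes were set against each other within each library, since a ratio within a library does not depend on how libraries are scaled. The promoters of the pairs that diverged most are shown first, from the RefSeq table of GRCm38.p6, as 250 bases before to 50 bases after the gene start, read along the gene's strand, with any E-box (CACGTG, its own reverse complement) in capitals. Their positions are chr6:6217124-6217423 (minus strand) for Slc25a13, chr2:71367706-71368005 (minus strand) for Slc25a12, chr4:149774218-149774517 (minus strand) for Slc25a33 and chr9:97110992-97111291 (minus strand) for Slc25a36.
Slc25a13: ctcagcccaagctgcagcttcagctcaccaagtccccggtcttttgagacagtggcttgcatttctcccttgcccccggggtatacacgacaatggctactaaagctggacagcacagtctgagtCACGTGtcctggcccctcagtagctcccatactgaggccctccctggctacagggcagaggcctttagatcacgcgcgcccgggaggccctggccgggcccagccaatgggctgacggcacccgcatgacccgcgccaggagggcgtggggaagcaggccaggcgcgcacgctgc
Slc25a12: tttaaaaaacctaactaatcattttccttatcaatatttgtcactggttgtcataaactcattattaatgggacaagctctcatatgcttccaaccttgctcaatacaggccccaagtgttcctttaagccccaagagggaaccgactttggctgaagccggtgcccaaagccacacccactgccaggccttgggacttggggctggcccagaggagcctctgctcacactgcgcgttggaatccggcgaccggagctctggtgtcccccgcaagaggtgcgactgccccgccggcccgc
Slc25a33: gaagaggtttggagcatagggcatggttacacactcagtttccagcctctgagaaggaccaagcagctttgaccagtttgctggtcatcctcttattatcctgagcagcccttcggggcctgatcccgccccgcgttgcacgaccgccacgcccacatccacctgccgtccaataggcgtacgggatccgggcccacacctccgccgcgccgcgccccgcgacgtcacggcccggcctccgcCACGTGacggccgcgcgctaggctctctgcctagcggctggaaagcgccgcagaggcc
Slc25a36: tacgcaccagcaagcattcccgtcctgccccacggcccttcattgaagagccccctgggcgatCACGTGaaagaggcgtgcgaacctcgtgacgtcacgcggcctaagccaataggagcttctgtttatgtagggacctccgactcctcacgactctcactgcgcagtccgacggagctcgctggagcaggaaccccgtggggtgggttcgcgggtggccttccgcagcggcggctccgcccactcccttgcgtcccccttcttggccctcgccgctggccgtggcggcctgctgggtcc

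The window of Slc25a13 held an E-box and that of Slc25a12 did not, while Slc25a33 and Slc25a36 had it alike. Of the 44 members, 33 matched the table, and 25 of these were among the tested members. An E-box stood in at least 1 window of 7 of the 33 matched members, against 8.09% of the 27025 genes in the table. It stood in 6 of the 25 tested members matched, in 2 of the 8 lower and in 0 of the 2 higher. Members that did not pass, such as Slc25a36, thus held it too. The TNAAGGTCA element of estrogen-related receptors, the TGATGNAAN element bound by ATF4 and the palindromic element of NRF1, each searched on either strand, stood in no window of the 33, against 1.43%, 4.5% and 1.07% of all genes. A match or its absence describes these letters in this window and no more.

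Slc25a13 made up 29.9%, 27.2% and 26.8% of the summed FPKM of Slc25a13 and Slc25a12 in Nat10-CKO replicates 1, 2 and 3, against 55.8%, 54.5% and 55.6% in Nat10 flox/flox replicates 1, 2 and 3. The share hardly varied within a group, also in Nat10-CKO replicate 1, where either gene was lowest. The mean log2 ratio was -1.36 ± 0.12 in libraries labelled Nat10-CKO and 0.31 ± 0.04 in Nat10 flox/flox libraries (SD, n = 3 each), a difference of -1.67. Slc25a33 made up 36.4%, 36.8% and 32.9% of the sum of Slc25a33 and Slc25a36 in libraries labelled Nat10-CKO, against 63.0%, 56.7% and 71.7% in Nat10 flox/flox libraries, a difference of -1.70 in the log2 ratio. In both pairs the more abundant gene was another one in each group.

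Slc25a25 made up 37.4%, 40.0% and 49.5% of the sum of Slc25a25 and Slc25a24 in libraries labelled Nat10-CKO, against 31.4%, 18.4% and 24.6% in Nat10 flox/flox libraries, a difference of 1.18 in the log2 ratio. Slc25a37 made up 14.3%, 18.4% and 19.3% of the sum of the mitoferrin genes in libraries labelled Nat10-CKO, against 21.8%, 23.7% and 26.2% in Nat10 flox/flox libraries, a difference of -0.59. The groups did not overlap in any of the 4 pairs compared. Each difference had a two-sided exact permutation p of 0.1 (0.1 also after Benjamini-Hochberg adjustment over the 4 pairs), which is the smallest that 3 against 3 libraries can give, so this test could not reach the threshold. The pair of Slc25a40 and Slc25a39 was not compared because Slc25a40 was under the filter.

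**Figure D4:**
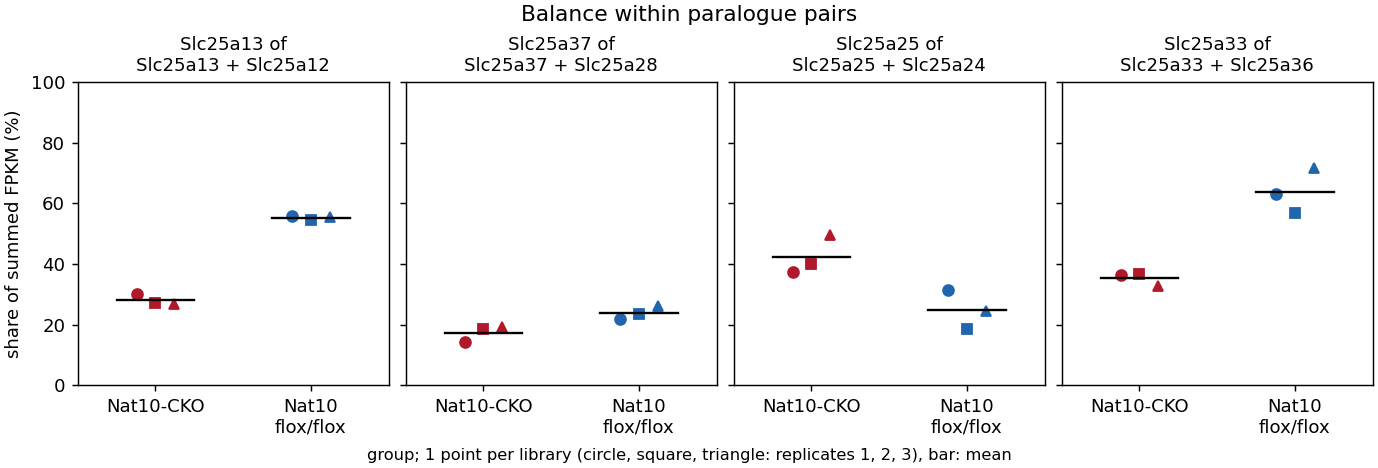
Share of the first gene in the summed FPKM of each of 4 paralogue pairs (percent), 1 point per library with Nat10-CKO left and Nat10 flox/flox right; bars are group means. Slc25a13 lies between 26.8% and 29.9% in libraries labelled Nat10-CKO and between 54.5% and 55.8% in Nat10 flox/flox libraries, and no pair's groups overlap.

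The members lie on 19 chromosomes, and 3 pairs of them are neighbours within 100000 bases. Slc25a29 and Slc25a47 on chromosome 12 are separated by 13937 bases and run on opposite strands; Slc25a47 was higher and Slc25a29 did not pass. Slc25a41 lies 2056 bases from Slc25a23 on chromosome 17, and Slc25a54 lies 6566 bases from Slc25a24 on chromosome 3. In each of these last pairs a gene near or at 0 reads stands beside one of several FPKM. Another annotated gene overlaps 16 of the members. Among them Rnf167 overlaps Slc25a11 on the opposite strand by 301 bases and had a mean of 17.4 FPKM, so reads of that stretch are uncertain.

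Among libraries labelled Nat10-CKO, members differed in which was lowest. Nat10-CKO replicate 1 was the lowest of the 3 for 19 of the 33 tested members, against 43.0% of all tested genes. Among the 11 lower members it was lowest for 7 (63.6%), against 58.2% of all 1924 lower genes. The summed cardiomyocyte markers and 6 of the 7 singly were also lowest in that library, while Tnnt2, a subunit of troponin, was highest there (4301 FPKM). Between the groups, 2 of these 7 markers were lower and 0 higher, against 16% and 24.4% of all tested genes. Their median log2 fold change was -0.81. Tnni3 and Pln were the lower ones (ratios of group means 0.336 and 0.282). Actc1, Mb and Ryr2 averaged lower without passing, while Myh6 and Tnnt2 had ratios of 1.05 and 1.06. The part of the cardiomyocyte markers in the SLC25 levels was not tested.

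Carriers without an Slc25a symbol were tested beside the family. Of 10 tested genes among the other uncoupling proteins, the pyruvate carrier subunits, the sideroflexins and the carrier-like Mtch1 and Mtch2, 2 were lower and 0 higher, against 16% and 24.4% of all tested genes, with a median log2 fold change of -0.24. Ucp3, an uncoupling protein of muscle that belongs to the same protein family, had 3.62, 1.31 and 2.48 FPKM in libraries labelled Nat10-CKO, against 47.7, 30.7 and 75.3 FPKM in Nat10 flox/flox libraries (adjusted p = 0.000613 by limma). Mtch1, an outer membrane relative, had 42.0, 48.7 and 42.8 FPKM in libraries labelled Nat10-CKO, against 87.6, 65.5 and 73.1 FPKM in Nat10 flox/flox libraries (adjusted p = 0.00687 by limma). Mpc2, a subunit of the pyruvate carrier, averaged lower without passing (log2 fold change -0.46, adjusted p = 0.086 by limma).

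Carriers reach the inner membrane through the TOM complex, small chaperones of the intermembrane space and the TIM22 translocase. Of 12 tested genes of this route 3 were higher and 2 lower, near the 24.4% and 16% of all tested genes, with a median log2 fold change of 0.19. Timm22, the channel of the translocase, had 11.6, 12.4 and 14.2 FPKM in libraries labelled Nat10-CKO, against 7.63, 6.89 and 8.50 FPKM in Nat10 flox/flox libraries (log2 fold change 0.66 with SE 0.12, adjusted p = 0.00546 by limma). The chaperone gene Timm9 had 14.2, 15.0 and 16.2 FPKM in libraries labelled Nat10-CKO, against 7.40, 7.64 and 7.85 FPKM in Nat10 flox/flox libraries (adjusted p = 0.000772 by limma). Its partner Timm10 was the third higher gene (log2 fold change 1.14, adjusted p = 0.00777 by limma). Tomm22, a receptor of the outer membrane, had 22.0, 27.9 and 29.3 FPKM in libraries labelled Nat10-CKO, against 42.7, 45.1 and 43.8 FPKM in Nat10 flox/flox libraries (adjusted p = 0.00583 by limma), and the chaperone gene Timm8b was the other lower one (log2 fold change -0.95, adjusted p = 0.0254 by limma). Groups of these 5 genes, all picked as past the threshold, did not overlap, and neither did those of 55.9% of all tested genes. Timm10 and Timm8b were named after their values were seen.

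Enzymes of the malate-aspartate shuttle and of glycerol phosphate metabolism fell in 3 of 7 cases and rose in 0, against 16% and 24.4% of all tested genes. Their median log2 fold change was -0.41. Mdh2, the malate dehydrogenase of the matrix, had 546, 613 and 736 FPKM in libraries labelled Nat10-CKO, against 828, 877 and 966 FPKM in Nat10 flox/flox libraries (adjusted p = 0.0439 by limma). Gpd1l and Gpd2 of glycerol phosphate metabolism were the other 2 (adjusted p = 0.0478 and 0.0418 by limma). Among the malate-aspartate enzymes listed, only Mdh2 passed. Genes of heme synthesis and iron-sulphur assembly, which use the imported iron, fell in 8 of 18 cases and rose in 0, against 16% and 24.4% of all tested genes, with a median of -0.44. The list holds Alas2, which is erythroid, and the erythroid markers were lower as given above. Isca2, an iron-sulphur assembly factor, had 14.3, 15.7 and 18.2 FPKM in libraries labelled Nat10-CKO, against 31.0, 32.0 and 35.7 FPKM in Nat10 flox/flox libraries (adjusted p = 0.00133 by limma). Urod, an enzyme of heme synthesis, was lower as well (log2 fold change -0.67, adjusted p = 0.00185 by limma).

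Genes that make or use the cofactors carried, in glutathione, folate, NAD and mitochondrial nucleotide metabolism, were higher for 8 and lower for 2 of 19 tested members, against 24.4% and 16% of all tested genes, with a median log2 fold change of 0.17. Mthfd1, the cytosolic enzyme of folate metabolism, had 11.01, 12.9 and 14.5 FPKM in libraries labelled Nat10-CKO, against 6.17, 6.29 and 7.19 FPKM in Nat10 flox/flox libraries (log2 fold change 0.87 with SE 0.13, adjusted p = 0.00243 by limma). The lower ones were Nmnat3, an NAD synthesis enzyme described in mitochondria, at 1.66, 2.02 and 1.81 FPKM in libraries labelled Nat10-CKO, against 3.33, 4.22 and 4.59 FPKM in Nat10 flox/flox libraries (adjusted p = 0.00337 by limma), and Mthfd2l, a mitochondrial folate enzyme (adjusted p = 0.00509 by limma).

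Markers of other heart cells were measured as well. Of 5 endothelial markers 5 were lower, against 16% of all tested genes, with sums of 130 to 132 FPKM in libraries labelled Nat10-CKO and 212 to 266 FPKM in Nat10 flox/flox libraries. Of 5 fibroblast and 5 macrophage markers 0 passed in either list by limma, where 40.5% of all tested genes passed in either direction. Which cells carried each SLC25 transcript cannot be told from whole hearts.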

How the data were processed

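RNA from hearts of 10-day-old mice was sequenced in 6 libraries, 3 labelled Nat10-CKO and 3 labelled Nat10 flox/flox. Libraries were directional and made from poly-T selected RNA, per the labels' protocols. Per the design text and the submitters' processing notes, the authors aligned to GRCm39 with HISAT2 2.2.1 and counted with featureCounts 2.0.6. The deposited values are FPKM per gene and library, with gene lengths. The strand setting and the definition of gene length are not given in the sources used here.

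FPKM times gene length was a whole number of reads for 100% of values (tolerance 0.01 read), so reads per gene were recovered for depth and for a test with voom; the FPKM test stayed the main one. The test was limma's (version 3.58.1, R 4.3.3; lmFit, then eBayes with a trend, two-sided) on log2(FPKM + 1) for genes averaging at least 1 FPKM, with Benjamini-Hochberg adjustment over all tested genes and a threshold of 0.05. Fold changes on this scale understate changes of low genes. A ratio of group means is Nat10-CKO over Nat10 flox/flox. A bare value in brackets after a setting is that setting's adjusted p by limma where a call was gained or lost, and its log2 fold change where a sign turned. The script was tested on simulated reads. Replicates are biological per the labels, and no batch is labelled. The alternatives were the pseudocount (0.1, 0.5), the filter, the scaling, the trend, array weights, voom, a replicate block, libraries left out and a call rule that also asks for an absolute log2 fold change of 1.

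The members, gene lists and alternatives were chosen with earlier results of these data known. Full values were set for the 6 largest rises and falls past the threshold, the 5 most abundant members and the members of 5 paralogue pairs; the other members are given so that each is accounted for, and some of their values were chosen after they were seen. From each further list at most 3 genes with the smallest adjusted p were to be named. Slc25a52 was not analysed here. The counts cover all members, but 1 tested member and some list genes are not reported here by name. Chromosome names came from a RefSeq gene table by gene ID, and promoter windows from a RefSeq table of GRCm38.p6. Python 3.11.15 with matplotlib 3.10.9 made the figures.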

Additional observations from a re-analysis of the deposited data

How the results depend on the processing

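With 3 libraries a group, the calls of Slc25a3, Slc25a25, Slc25a32, Slc25a35, Slc25a37, Slc25a45 and Slc25a47 were lost when certain single libraries were left out, while Slc25a34, Slc25a13, Slc25a42, Slc25a22 and Slc25a33 passed as lower under all 21 alternatives. Higher and lower SLC25 members numbered 3 and 11. They numbered 1 and 7 with no filter (Slc25a3, Slc25a25, Slc25a32, Slc25a35, Slc25a37 and Slc25a47 lost their call), 5 and 7 with protein-coding genes rescaled, 0 and 5 where an absolute log2 fold change of 1 was also asked for, and 1 and 8 with a minimum mean of 5 FPKM, where 21 members were tested. Higher and lower members numbered 4 and 16 with array weights and 2 and 14 without the mitochondrially encoded genes. The counts were 3 and 13 under quantile normalization and 2 and 13 with scaling by total reads. With 1 library or both that stood apart left out, higher members ranged between 1 and 3, lower members between 6 and 13, and lower genes overall between 1207 and 1924. Over all tested genes, 1159 were lower at a minimum mean of 5 FPKM, 3007 with array weights, and 960 were higher and 560 lower where an absolute log2 fold change of 1 was also asked for.

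The numbers do not show that replicates are paired (correlation of same-numbered deviations 0.0649, 0.0373 and 0.105). With a replicate block, 3 members were higher and 10 lower, and over all tested genes 2666 and 1724. Slc25a32 (adjusted p = 0.0571 by limma) and Slc25a35 (0.0624) lost their call under the block and Slc25a11 gained one (0.035).

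No member past the threshold turned its sign. Among the others, log2 fold changes turned under quantile normalization for Slc25a46 (-0.0064) and Slc25a28 (-0.14), and with mitochondrially encoded genes left out for Slc25a28 (-0.043). They turned with protein-coding genes rescaled for Slc25a23 (0.092), and with array weights for Slc25a39 (0.10), Slc25a28 (-0.0015), Slc25a23 (0.44) and Slc25a36 (0.018). With libraries left out, values spanned zero for Slc25a39 (-0.32 to 0.075), Slc25a28 (-0.022 to 0.096), Slc25a23 (-0.34 to 0.24), Slc25a36 (-0.26 to 0.11), Slc25a29 (-0.63 to 0.11), Slc25a24 (-0.49 to 0.036) and Slc25a14 (-0.29 to 0.0084). The cause was not tested. No paralogue pair changed direction with a library left out or with 1 added to each FPKM.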
